A study of Mus musculus with 11 samples.

Results

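A set of 8 chemokine genes, chosen by name as ligands made by stromal cells, was followed through stromal cells sorted from mouse bone marrow. The genes were Ccl2, Ccl7, Ccl9, Ccl11, Cxcl1, Cxcl2, Cxcl5 and Cxcl14, and all 8 were found in each of the 3 deposited tables, which list 16507, 14267 and 14910 genes. PolyA RNA of 11 samples was sequenced to ask how these sorted cells differ with age, with the surface protein Sca1, and with loss of Igf1r. Igf1r encodes a receptor for insulin-like growth factors. There were 3 samples of adult wild-type cells from the PDGFRa+CD51+ gate, 2 of perinatal wild-type cells from the PDGFRa+Sca1- gate (replicates 2 and 3), 3 of Igf1r knockout cells from the PDGFRa+Sca1+ gate, and 3 of perinatal wild-type cells from the PDGFRa+Sca1+ gate. Replicates 2 and 3 of the last group served as comparison libraries in all 3 tables, joined by a replicate 1 in the adult and knockout tables. The group is called perinatal beside the adult samples, labelled Sca1-positive beside the labelled Sca1-negative samples, and control beside the knockouts. The knockout titles were Cre-positive and the control titles Cre-negative, the labels do not name what drives Cre, and any effect of Cre itself cannot be told apart from the deletion. The labels give no strain, no sex and no age in days, and nothing in them ties a sample to its own animal. The p-values therefore reflect only how far these samples spread, part of which may be technical.

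Chemokines are small secreted proteins that guide leukocytes by binding receptors on their surface. The CC ligands Ccl2 and Ccl7 act on Ccr2 and draw monocytes out of the marrow, Ccl11 (eotaxin) acts on Ccr3 and draws eosinophils, and Ccl9 is a ligand of Ccr1 made by macrophages and osteoclasts of mice. The CXC ligands Cxcl1, Cxcl2 and Cxcl5 act on Cxcr2 and draw neutrophils, while Cxcl14 is a constitutively made ligand of epithelial and connective tissue. Several of these genes are induced by NF-kB after inflammatory signals, and their messages are short-lived.

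In mm10, with GENCODE M21 annotation, 3 of the genes lie side by side on the plus strand of chromosome 11, each with 3 exons. Ccl2 (ENSMUSG00000035385) runs from 82035571 to 82037453, Ccl7 (ENSMUSG00000035373) from 82045712 to 82047525, and Ccl11 (ENSMUSG00000020676) from 82057823 to 82062955. The gap between Ccl2 and Ccl7 is 8.259 kb and that between Ccl7 and Ccl11 is 10.298 kb. Ccl9 (ENSMUSG00000019122) lies 1509.96 kb further along, on the minus strand from 83572919 to 83578636. On chromosome 5, Cxcl5 (ENSMUSG00000029371, 90759360 to 90761624), Cxcl1 (ENSMUSG00000029380, 90891241 to 90893115) and Cxcl2 (ENSMUSG00000058427, 90903871 to 90905938) lie on the plus strand, with 10.756 kb between Cxcl1 and Cxcl2. Cxcl14 (ENSMUSG00000021508) lies apart from the others on chromosome 13, on the minus strand from 56288643 to 56296551.

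Upstream sequence of 4 of the 8 genes was matched by symbol in the RefSeq promoter set (build GRCm38.p6). The 150 bases before the RefSeq start are shown for the neighbours Cxcl1 and Cxcl2, the chemokines called across the Sca1 gate below. They are also shown for Ccl9, the chemokine called higher in adult cells. Capitals mark matches to an NF-kB-like pattern (GGGA, any 4 bases, then CC) in Cxcl1 and Cxcl2, and matches to TATAAA in Ccl9, on either strand.
Cxcl1, chr5:90891095-90891244, plus strand: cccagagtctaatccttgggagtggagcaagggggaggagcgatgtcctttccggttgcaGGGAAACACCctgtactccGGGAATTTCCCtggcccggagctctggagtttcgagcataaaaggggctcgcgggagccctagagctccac
Cxcl2, chr5:90903749-90903898, plus strand: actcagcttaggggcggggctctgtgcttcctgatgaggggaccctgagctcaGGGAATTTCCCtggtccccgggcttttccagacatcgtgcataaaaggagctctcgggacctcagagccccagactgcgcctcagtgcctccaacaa
Ccl9, chr11:83578637-83578786, minus strand: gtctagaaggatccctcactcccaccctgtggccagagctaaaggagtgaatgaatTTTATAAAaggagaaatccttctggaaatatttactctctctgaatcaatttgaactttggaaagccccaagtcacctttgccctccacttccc

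The longest stretch that the Cxcl1 and Cxcl2 upstream sequences share is GGGAATTTCCCTGG, 14 bases that begin 71 bases before the RefSeq start of Cxcl1 and 97 bases before that of Cxcl2. Distances in this paragraph are all from the RefSeq start, which for these genes lies inside the GENCODE gene. The bases shown end at 90891244 for Cxcl1 and 90903898 for Cxcl2, past the GENCODE starts at 90891241 and 90903871. The 2 distances are therefore not comparable with the gene coordinates above. Within it the NF-kB-like pattern matches on both strands, 1 base apart. Cxcl1 has a further match, GGGAAACACC, 90 to 81 bases before its start. In the windows of 250 bases before to 50 bases after the start, no match to the pattern was found for Ccl9 or Cxcl14. The pattern occurs in 20.7% of all 32851 windows of 300 bases. The AP-1 pattern TGANTCA (N is any base) was found only in Ccl9 among the 4 genes, 53 to 47 bases before the start, and occurs in 7.81% of all windows. TATAAA was found only in Ccl9 among the 4, at 92 to 87 bases before the start on the plus strand of the gene and at 94 to 89 and 224 to 219 on the other strand, and occurs in 13.6% of windows. These letter matches are a description and do not show binding.

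Total counts per library ran from 13412316 to 23782217, so that a count of 3, taken as the floor of a library, stands for 0.126 to 0.224 CPM (counts scaled to a common library total). The floor covers counting error only. The 3 tables hold the same perinatal libraries 2 and 3, with equal counts in at least 97.9% of genes and in 8 of 8 chemokines. Replicate 1 was a different library in the adult table than in the knockout table, since counts were equal in 1.72% of genes and 0 of 8 chemokines. Its column is numbered 1 in the adult table and 5 in the knockout table, and the labels give both to the same sample, so that 4 distinct libraries stand for the 3 comparison samples. The 3 comparisons therefore share comparison libraries and are not independent of each other. Ly6a, which encodes Sca1, went against the labels. It was at 666 and 659 CPM in the libraries labelled Sca1-negative, against 13.8 and 10.03 CPM in libraries 2 and 3 labelled Sca1-positive. In the knockout table it was at 768, 682 and 930 CPM in the knockouts, against 425 CPM in control 1 and 13.8 and 10.03 CPM in controls 2 and 3. Igf1r was at 8.20, 4.22 and 3.24 CPM in the knockout libraries, against 29.5, 31.7 and 30.7 CPM in the controls. Pdgfra, the gene of the receptor used in every sort, was at 13.4 to 15.2 CPM in adult libraries, against 235 to 279 CPM in perinatal libraries.

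**Figure D1:**
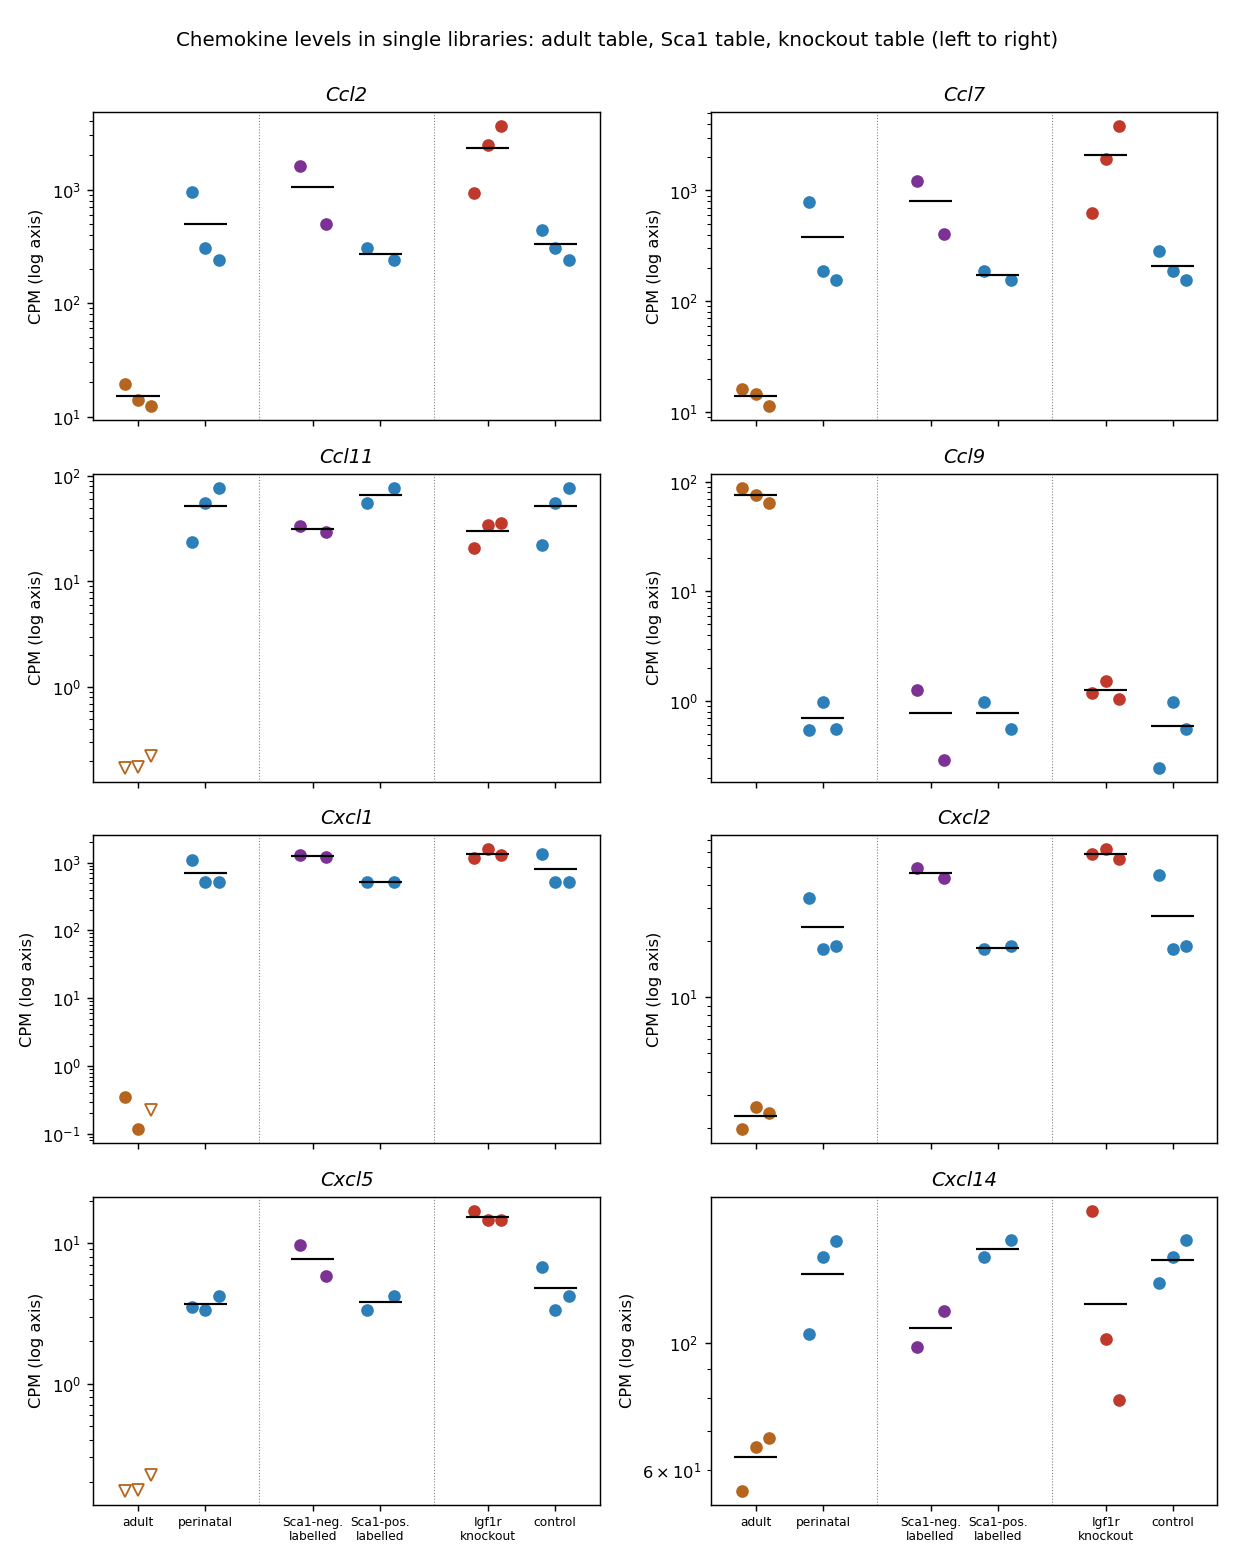
Level of each chemokine in every library, in CPM on a log axis (points), with the group mean as a line, for the adult, Sca1 and knockout tables from left to right. Open triangles stand at the floor of 3 counts for libraries with a count of 0, as in all 3 adult libraries for Ccl11 and Cxcl5, and Ccl9 is the gene whose adult libraries lie above the perinatal ones.

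Adult cells were compared with perinatal cells to find how the chemokine levels of the sorted cells differ with age, with the sort gate differing at the same time. The adult libraries were low in Pdgfra, the gene of the receptor they were sorted on, and high in Adgre1, a defining macrophage gene, which was at 910.2, 1054 and 881 CPM, against 0.135, 0.231 and 0.346 CPM in perinatal libraries. In adult cells 7 of the 8 chemokines were lower and 1, Ccl9, was higher. The monocyte attractants Ccl2 and Ccl7 were 32.8-fold and 27.0-fold lower in adult cells by their means, the neutrophil attractant Cxcl2 was 10.2-fold lower, and Cxcl1 was close to the floor in adult cells. Ccl11 and Cxcl5 had no count in any adult library.

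Among the CC ligands, Ccl2 had 19.3, 14.1 and 12.4 CPM in adult libraries, against 955, 303 and 240.0 CPM in perinatal libraries. Ccl7 had 16.2, 14.6 and 11.3 CPM in adult libraries, against 791, 189 and 155 CPM in perinatal libraries. For both genes perinatal library 1 was highest, and every perinatal library lay far above every adult library. The log2 fold change of adult over perinatal was -5.30 (SE 0.60, edgeR quasi-likelihood adjusted p = 0.000121) for Ccl2 and -5.02 (SE 0.70, adjusted p = 0.000342) for Ccl7. Ccl11 had counts of 0, 0 and 0 in adult libraries, against 348, 947 and 1112 counts (23.5, 54.7 and 76.9 CPM) in perinatal libraries. Perinatal library 1, the highest for Ccl2 and Ccl7, was the lowest for their neighbour Ccl11. Set against the floor of 3 counts per library, Ccl11 was at least 270-fold lower in adult cells (edgeR adjusted p = 0.000137).

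Ccl9 went in the opposite direction. It had 88.0, 75.1 and 64.0 CPM in adult libraries, against 0.540, 0.981 and 0.553 CPM in perinatal libraries, where its counts were 8, 17 and 8. The means were 75.7 ± 12.05 CPM (SD, n = 3) in adult libraries and 0.691 ± 0.251 CPM (SD, n = 3) in perinatal libraries, and the log2 fold change was 6.47 (SE 0.26, edgeR adjusted p = 1.15e-06). The adult libraries were rich in transcripts of macrophages, a cell type known to make Ccl9. All 16 genes of a macrophage and monocyte list were called higher, and their summed level was 24701 to 27604 CPM in adult libraries, against 30.4 to 41.6 CPM in perinatal libraries. Lyz2, the lysozyme gene of macrophages, was at 12109, 12911 and 11046 CPM in adult libraries, against 10.99 to 11.9 CPM in perinatal libraries. The part of these transcripts in the level of Ccl9 was not tested.

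Among the CXC ligands, Cxcl1 had 6, 2 and 0 counts in adult libraries, against 15939, 8912 and 7446 counts (1075, 514 and 515 CPM) in perinatal libraries. Its log2 fold change was -12.24 (SE 0.66, edgeR adjusted p = 3.61e-06), resting on 8 adult counts in all. Cxcl2 had 1.97, 2.59 and 2.39 CPM in adult libraries, against 34.2, 18.2 and 18.7 CPM in perinatal libraries, a log2 fold change of -3.62 (SE 0.31, edgeR adjusted p = 2.86e-05). Cxcl1 thus differed far more than Cxcl2, although their genes are neighbours and perinatal library 1 was highest for both. Cxcl5 had counts of 0, 0 and 0 in adult libraries, against 52, 58 and 61 counts in perinatal libraries, and was at least 19.3-fold lower in adult cells against the floor (edgeR adjusted p = 6.33e-05). Cxcl14 differed least. It had 55.1, 65.6 and 68.3 CPM in adult libraries, against 104, 142 and 151 CPM in perinatal libraries, which left the groups apart but close. Its log2 fold change was -1.34 (SE 0.18, edgeR adjusted p = 0.000272).

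All 8 chemokines were called at an adjusted p under 0.05, where 77.1% of the 13757 genes tested were called in this comparison. Of the 8, 1 was called higher, against 37.4% of all genes, and 7 lower, against 39.7% of all genes. The groups did not overlap for any of the 8, and did not overlap for 81.0% of all genes. The median log2 fold change of the 8 was -5.16, or -4.64 with the 2 genes at 0 set at their bounds, beside -0.06 over all genes tested.

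Of 31 other chemokine ligands, 16 were tested, and 6 of them were called higher and 7 lower in adult cells. Cxcl16, a membrane-bound ligand of macrophages, rose (173 ± 14.4 CPM in adult libraries, against 16.4 ± 2.19 CPM in perinatal libraries, SD, n = 3 for each group), and so did Ccl6, a relative of Ccl9 (log2 fold change 5.90). The interferon-induced ligands Cxcl10 and Cxcl9 fell by 8.37 and 5.16 on the log2 scale. Of the chemokine receptors 11 were tested, with 6 higher and 4 lower. The leukocyte receptors Cx3cr1 and Cxcr4 rose, with log2 fold changes of 10.15 and 8.26, while Ackr3, a scavenging receptor of Cxcl12 found on stromal cells, fell by 5.92. Of 20 genes of the NF-kB pathway, 8 were called in each direction. Nfkbia, which encodes the inhibitor that NF-kB itself induces, averaged 68.0 ± 4.94 CPM in adult libraries, against 2183 ± 246 CPM in perinatal libraries (SD, n = 3 for each group), and Nfkbiz and Birc3, further NF-kB targets, fell by 3.65 and 1.88 on the log2 scale. Ikbkb, a kinase that activates NF-kB, rose (log2 fold change 2.04). All of these calls had an edgeR adjusted p of 3.95e-05 or less.

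Factors that shorten or extend the life of inflammatory messages moved in both directions. Zfp36 and Zfp36l1, which promote decay, fell by 4.88 and 3.49 on the log2 scale, Zfp36l2 of the same family rose (log2 fold change 2.19), and Elavl1, which stabilises messages, fell by 0.89 (edgeR adjusted p of 0.00224 or less for all 4). In all, 3 of the 6 factors were called higher and 3 lower. Of 20 immediate early genes, which also rise when tissue is dissociated, 19 were called lower and none higher in adult cells. Their summed level was 1192 to 1282 CPM in adult libraries, against 15307 to 20467 CPM in perinatal libraries. Fos was at 9.95 ± 1.56 CPM in adult libraries, against 3993 ± 643 CPM in perinatal libraries (SD, n = 3 for each group). The part of this difference in the levels of the inducible chemokines was not tested.

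Markers of the stromal cells differed as well. Of the fibroblast progenitor genes 9 of 10 were called lower, with a summed level of 112 to 144 CPM in adult libraries, against 5143 to 11202 CPM in perinatal libraries. All 13 cartilage genes tested were called lower, and the cartilage genes summed to 121 to 171 CPM in adult libraries, against 948 to 8762 CPM in perinatal libraries. Of the osteoblast genes 6 of 9 were called lower, with 1414 to 1807 CPM in adult libraries, against 362 to 6504 CPM in perinatal libraries. Most of the adult sum was Spp1, at 1562 ± 200 CPM (SD, n = 3), which overlapped between the groups and was not called. The bone matrix genes Ibsp and Bglap averaged 1.89 and 0.651 CPM in adult libraries, against 336 and 341 CPM in perinatal libraries. Neutrophil genes, of which 7 of 8 were called lower, summed to 0.746 to 1.77 CPM in adult libraries, against 43.5 to 69.6 CPM in perinatal libraries, and Ngp, S100a9, Retnlg, Mpo and Elane were at 0 in all adult libraries. Endothelial genes, 8 of 10 of them called lower and 2 higher, summed to 175 to 286 CPM in adult libraries, against 188 to 240 CPM in perinatal libraries. Among the cartilage markers 5 (Cnmd, Col9a1, Col9a2, Hapln1 and Snorc) were at 0 in all adult libraries. In bulk samples, fewer cells of a type and less RNA per cell cannot be told apart. Perinatal library 1 stood apart from libraries 2 and 3 in the adult table, with 948 CPM of cartilage genes and 11202 CPM of fibroblast progenitor genes. Ly6a is not listed in the adult table, so its level in this library, which is not control 1, and in the adult libraries is not known. With perinatal libraries 2 and 3 left out, a fit that assumes that the lone perinatal library varies like the adult ones, all 8 chemokines were called in the same directions, where 74.4% of all genes were called, with log2 fold changes of -6.21 for Ccl2, -6.06 for Ccl7, 6.87 for Ccl9 and -0.97 for Cxcl14.

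Libraries labelled Sca1-negative were set against those labelled Sca1-positive to ask how the chemokines differ across the Sca1 gate, and since Ly6a was high in the first and low in the second, each direction runs against what Ly6a shows. Cxcl1 and Cxcl2 rose 2.42-fold and 2.51-fold in the libraries labelled Sca1-negative, and were the chemokines that passed the test. Ccl2 and Ccl7 were 3.90-fold and 4.69-fold higher by their means but differed about 3-fold between the libraries labelled Sca1-negative, and did not pass.

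Cxcl1 had 1270.0 and 1219 CPM in the libraries labelled Sca1-negative, against 515 and 515 CPM in libraries labelled Sca1-positive. Cxcl2 had 49.2 and 43.5 CPM in the libraries labelled Sca1-negative, against 18.2 and 18.7 CPM in libraries labelled Sca1-positive. Within each group the replicates of both genes lay close together, and the groups were well apart. The log2 fold change of labelled Sca1-negative over labelled Sca1-positive was 1.31 (SE 0.19, edgeR adjusted p = 0.0156) for Cxcl1 and 1.36 (SE 0.19, adjusted p = 0.0136) for Cxcl2. Cxcl5, the remaining Cxcr2 ligand, had 9.64 and 5.78 CPM in the libraries labelled Sca1-negative, against 3.35 and 4.22 CPM in libraries labelled Sca1-positive (log2 fold change 1.07, SE 0.35, edgeR adjusted p = 0.164). The edgeR calls did not hold with 1 library labelled Sca1-positive left out: Cxcl1 had an adjusted p of 0.173 without library 2 and 0.130 without library 3, and Cxcl2 had 0.0619 without library 2. These fits called 3.55% and 3.48% of all genes, and the log2 fold changes stayed at 1.25 to 1.37 for Cxcl1 and 1.24 to 1.48 for Cxcl2 in all 9 alternatives.

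Ccl2 had 1621 and 499.5 CPM in the libraries labelled Sca1-negative, against 303 and 240.1 CPM in libraries labelled Sca1-positive. Ccl7 had 1211 and 402 CPM in the libraries labelled Sca1-negative, against 189 and 155 CPM in libraries labelled Sca1-positive. Library 2 of each label was the higher one for both genes, and the groups did not overlap. The log2 fold changes were 2.01 (SE 0.53, edgeR adjusted p = 0.0991) for Ccl2 and 2.28 (SE 0.51, adjusted p = 0.0633) for Ccl7. Leaving out any 1 of the 4 libraries put both past the threshold, with Ccl2 at a log2 fold change of 0.89 (edgeR adjusted p = 0.000389) without library 2 labelled Sca1-negative and 2.64 (adjusted p = 9.99e-10) without library 3 of that label. These fits leave 1 sample in a group, and they called 16.2% of all genes without library 2 and 34.7% without library 3 labelled Sca1-negative, and 3.55% and 3.48% without library 2 or 3 labelled Sca1-positive.

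Ccl11 and Cxcl14 lay the other way. Ccl11 had 33.3 and 29.1 CPM in the libraries labelled Sca1-negative, against 54.7 and 76.9 CPM in libraries labelled Sca1-positive (log2 fold change -1.04, SE 0.24, edgeR adjusted p = 0.0660). Cxcl14 had 98.5 and 114 CPM in the libraries labelled Sca1-negative, against 142 and 151 CPM in libraries labelled Sca1-positive (log2 fold change -0.43, SE 0.18, edgeR adjusted p = 0.263). The groups did not overlap for either gene, but neither difference passed the test. Without library 3 labelled Sca1-negative, Cxcl14 and Cxcl5 passed (edgeR adjusted p = 0.0169 and 0.000710), and Ccl11 passed without library 2 or 3 of that label or without library 2 labelled Sca1-positive (0.00600, 0.0125 and 0.0320), in the fits whose shares of all genes called are given above. Ccl9 was near the floor in all 4 libraries, at 1.25 and 0.289 CPM in those labelled Sca1-negative, against 0.982 and 0.553 CPM in those labelled Sca1-positive, and a difference was not detectable at this depth.

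In total 2 of the 8 chemokines were called, where 4.41% of the 13529 genes tested were called. Both were higher, as were 1.63% of all genes, and 0 were lower, against 2.79% of all genes. The groups did not overlap for 7 of the 8, 5 higher and 2 lower, and did not overlap for 49.8% of all genes. The median log2 fold change of the 8 was 1.19, beside 0.01 over all genes tested. In the authors' deposited table, where a positive log2 fold change means higher in libraries labelled Sca1-positive, 4 of the 8 had an adjusted p under 0.05, against 6.68% of all its genes: Cxcl1 (-1.31, adjusted p = 5.72e-08), Cxcl2 (-1.37, 2.06e-05), Ccl7 (-2.29, 0.0412) and Ccl11 (1.04, 0.00527).

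Of 15 other chemokine ligands tested, Ccl19, a ligand of Ccr7, rose (55.02 and 34.5 CPM in the libraries labelled Sca1-negative, against 10.1 and 12.5 CPM in libraries labelled Sca1-positive, edgeR adjusted p = 0.0171), and Cx3cl1, the membrane-bound fractalkine, fell by 1.78 on the log2 scale (adjusted p = 0.0421). Of 8 chemokine receptors tested, 2 rose, both of them scavenging receptors that take up chemokines. Ackr3 had 309.5 and 306 CPM in the libraries labelled Sca1-negative, against 107 and 128 CPM in libraries labelled Sca1-positive (edgeR adjusted p = 0.0136), and Ackr2 had a log2 fold change of 1.83 (adjusted p = 0.0379). Of 20 NF-kB pathway genes, 1 rose, Il1r1, the receptor through which interleukin-1 induces Cxcl1 and Cxcl2 (log2 fold change 1.06, edgeR adjusted p = 0.0432). Of 20 immediate early genes 1 rose, the stress-induced factor Atf3 (log2 fold change 1.04, adjusted p = 0.0304). Of these 6 calls that of Ccl19 held with each library left out, and the others did not. By edgeR 0 of the 6 message decay factors were called, with 1 at an unadjusted p under 0.05 and 0 called in the authors' deposited table, and Zfp36, with a log2 fold change of 0.04 (SE 0.38), overlapped between the labels.

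Macrophage transcripts were scarce on either side of the gate, with a summed level of 29.6 to 44.8 CPM in the libraries labelled Sca1-negative, against 31.4 to 40.8 CPM in libraries labelled Sca1-positive. Fibroblast progenitor genes, 7 of 12 called higher, summed to 12114 to 12718 CPM in the libraries labelled Sca1-negative, against 5171 to 5433 CPM in libraries labelled Sca1-positive. This list includes Ly6a and Pdgfra, the genes of the sort markers, and Ly6a (log2 fold change 5.83) was 1 of the 7 called, so it is not independent of the gate. Cartilage genes, 14 of 14 called lower, summed to 782 to 903 CPM in the libraries labelled Sca1-negative, against 7632 to 8764 CPM in libraries labelled Sca1-positive, and osteoblast genes, 10 of 11 called lower, summed to 113 to 170 CPM in the libraries labelled Sca1-negative, against 5966 to 6505 CPM in libraries labelled Sca1-positive. Neutrophil genes, 0 of 9 called by edgeR, 1 of them at an unadjusted p under 0.05 and 0 called in the authors' deposited table, summed to 59.9 to 119 CPM in the libraries labelled Sca1-negative, against 44.5 to 69.7 CPM in libraries labelled Sca1-positive. Endothelial genes, 1 of 10 called, summed to 209 to 269.9 CPM in the libraries labelled Sca1-negative, against 217 to 239.8 CPM in libraries labelled Sca1-positive. The gene called was Tek, higher in the libraries labelled Sca1-negative (log2 fold change 2.50), while the median of the 10 was -0.41. The macrophage, neutrophil and endothelial sums overlapped between the labels, and the fibroblast progenitor, cartilage and osteoblast sums did not. The part of these 3 sums in the chemokine differences was not tested.

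**Figure D2:**
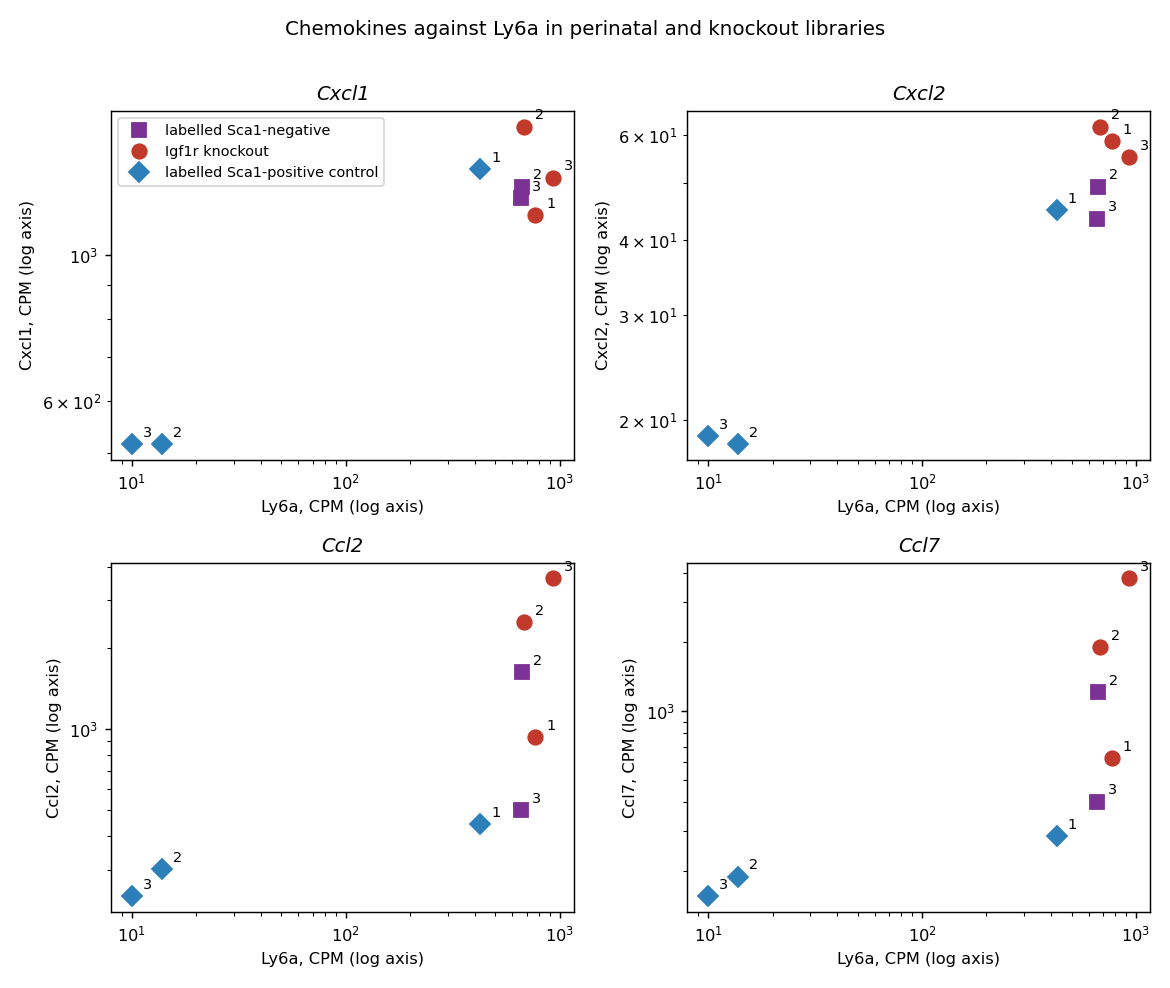
Level of Cxcl1, Cxcl2, Ccl2 and Ccl7 against the level of Ly6a, both in CPM on log axes, in libraries labelled Sca1-negative, Igf1r knockout and control libraries, with replicate numbers beside the points. Controls 2 and 3, at 13.8 and 10.03 CPM of Ly6a, have the lowest level of all 4 chemokines, while control 1, at 425 CPM of Ly6a, lies with the other libraries for Cxcl1 and below every knockout for Ccl2 and Ccl7.

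Igf1r knockout cells were compared with control cells to ask how the chemokines differ after loss of the receptor. Ccl2 and Ccl7 had the largest differences of the 8, with means 7.12-fold and 10.1-fold higher in knockout cells, and every knockout library lay above every control library for both. Cxcl5 was 3.22-fold and Cxcl2 2.15-fold higher by their means, also with no overlap. None of the 8 passed the edgeR test at an adjusted p under 0.05.

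Ccl2 had 935, 2486 and 3616 CPM in knockout libraries 1, 2 and 3, against 444.2, 303 and 240.2 CPM in controls 1, 2 and 3. Ccl7 had 625, 1907 and 3800.1 CPM in knockout libraries, against 283, 189 and 155 CPM in controls. Knockout libraries 2 and 3 were far above knockout library 1, and the spread within the knockouts, 3.87-fold for Ccl2 and 6.08-fold for Ccl7, was large beside that within the controls. The log2 fold changes of knockout over control were 2.88 (SE 0.55, edgeR adjusted p = 0.176) for Ccl2 and 3.40 (SE 0.67, adjusted p = 0.176) for Ccl7. Without knockout 1 both passed, at log2 fold changes of 3.28 and 3.85 with an edgeR adjusted p of 0.0228 for each, and so did Cxcl5 (0.0276), in a fit that called 21.5% of all genes. Ccl11, their neighbour, had 20.8, 33.9 and 35.6 CPM in knockout libraries, against 22.1, 54.7 and 77.0 CPM in controls. Its groups overlapped, and its log2 fold change was -0.70 (SE 0.43, edgeR adjusted p = 0.334).

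Cxcl5 had 16.9, 14.5 and 14.5 CPM in knockout libraries, against 6.71, 3.35 and 4.22 CPM in controls. Cxcl2 had 58.7, 62.1 and 55.2 CPM in knockout libraries, against 45.0, 18.2 and 18.8 CPM in controls. The knockout libraries agreed closely for both genes, and control 1 was the highest control. The log2 fold changes were 1.69 (SE 0.34, edgeR adjusted p = 0.176) for Cxcl5 and 1.10 (SE 0.40, adjusted p = 0.191) for Cxcl2. Cxcl1 had 1150.2, 1568 and 1311 CPM in knockout libraries, against 1351, 515 and 515 CPM in controls, so that control 1 lay within the knockout range (log2 fold change 0.76, SE 0.44, edgeR adjusted p = 0.311). Without control 1, Cxcl1, Cxcl2 and Cxcl5 passed, in a fit that called 2.19% of all genes. Their edgeR adjusted p values were 0.0481, 0.0208 and 0.0218, at log2 fold changes of 1.47, 1.75 and 2.10. That fit kept only the controls low in Ly6a, whereas every knockout library was high in it. With control 1 left out, the knockout therefore cannot be told apart from the difference in Ly6a. The controls kept were also lower in Cxcl1 and Cxcl2 than the wild-type libraries labelled Sca1-negative, which were high in Ly6a. Cxcl14 had 171, 102 and 79.3 CPM in knockout libraries, against 128, 142 and 152 CPM in controls, and its groups overlapped (log2 fold change -0.25, SE 0.28, edgeR adjusted p = 0.587). Ccl9 had 1.17, 1.53 and 1.05 CPM in knockout libraries, against 0.247, 0.982 and 0.554 CPM in controls, at most 29 counts in a library (log2 fold change 1.12, SE 0.59, edgeR adjusted p = 0.277).

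Because control 1 alone among the controls was high in Ly6a, as the knockouts were, the knockout libraries were also set against it alone. Against control 1, the knockout libraries were 2.10-fold to 8.14-fold higher for Ccl2, 2.21-fold to 13.4-fold higher for Ccl7, 2.17-fold to 2.53-fold higher for Cxcl5 and 1.23-fold to 1.38-fold higher for Cxcl2, with 3 of 3 knockout libraries above it in each case. For Cxcl1 the ratios were 0.852 to 1.16, with 1 of 3 knockout libraries above control 1, for Ccl11 they were 0.940 to 1.61, with 2 of 3 above, and for Cxcl14 they were 0.622 to 1.34, with 1 of 3 above. Ccl9 was 4.26-fold to 6.198-fold higher in 3 of 3 knockout libraries, against 5 counts in control 1. With controls 2 and 3 left out of the fit, which assumes that the lone control varies like the knockouts, the log2 fold changes were 2.37 (SE 0.87) for Ccl2, 2.88 (SE 1.08) for Ccl7, 1.13 (SE 0.46) for Cxcl5, 2.25 (SE 1.08) for Ccl9, 0.32 (SE 0.41) for Cxcl2 and -0.07 (SE 0.44) for Cxcl1. No gene was called in that fit (0% of 14328 genes, 807 of them at an unadjusted p under 0.05), and the edgeR adjusted p was 0.586 for Ccl2, Ccl7, Ccl9 and Cxcl5.

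By edgeR 0 of the 8 chemokines were called, where 0.0368% of the 13590 genes tested were called, 0% higher and 0.0368% lower. The 0.0368% stands for 5 genes, and the count was 0 with the replicate number as a block. At an unadjusted edgeR p under 0.05 stood 4 chemokines, Ccl2, Ccl7, Cxcl2 and Cxcl5. The share of all genes at that level is not given here, so this count cannot be judged against it. With DESeq2 3 of the 8 were called, Ccl2, Ccl7 and Cxcl5, against 6.70% of all genes. In the authors' deposited table, where a positive log2 fold change means higher in knockout cells, the same 3 had an adjusted p under 0.05 (Ccl2 2.88, adjusted p = 2.58e-06, Ccl7 3.39, 7.42e-07, and Cxcl5 1.68, 0.00175), against 6.40% of all its genes. The groups did not overlap for 5 of the 8, all higher, and did not overlap for 27.9% of all genes. The median log2 fold change of the 8 was 1.11, beside -0.03 over all genes tested.

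None of the 17 other chemokine ligands, 7 chemokine receptors, 20 NF-kB pathway genes, 6 message decay factors or 20 immediate early genes tested was called by edgeR in knockout cells. At an unadjusted p under 0.05 stood 6, 3, 4, 2 and 7 of them, in that order, and 3, 1, 1, 1 and 3 were called in the authors' deposited table. Cxcl12, the main chemokine that holds blood stem cells in the marrow, had 223, 153 and 104 CPM in knockout libraries, against 288, 473 and 582 CPM in controls, without overlap (log2 fold change -1.46, SE 0.34, edgeR adjusted p = 0.176). Cxcr2, the receptor of Cxcl1, Cxcl2 and Cxcl5, had 23.3, 46.4 and 50.9 CPM in knockout libraries, against 5.38, 17.4 and 15.6 CPM in controls (log2 fold change 1.73, SE 0.48, edgeR adjusted p = 0.177). Nfkbia and Zfp36 overlapped between the groups, with log2 fold changes of -0.09 (SE 0.33) and -0.54 (SE 0.38). Fos, an immediate early gene, had a log2 fold change of -0.92 (SE 0.35, edgeR adjusted p = 0.200). Egr1, of the same list, averaged 1151 ± 624 CPM in knockout libraries, against 2290.0 ± 467 CPM in controls (SD, n = 3 for each group, edgeR adjusted p = 0.201). Without knockout 1, Cxcl12, Cxcr2, Fos and Egr1 passed, at edgeR adjusted p values of 0.0244, 0.0252, 0.0407 and 0.0288, in the same fit that called 21.5% of all genes.

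Immediate early genes summed to 19659, 13394 and 9186 CPM in knockout libraries 1, 2 and 3, against 18181 to 25363 CPM in controls, and were highest in knockout 1 among the knockouts. Macrophage genes summed to 22.4 to 40.4 CPM in knockout libraries, against 32.5 to 41.8 CPM in controls, and Adgre1, a defining macrophage gene, had at most 9 counts in a knockout library. Fibroblast progenitor genes, Ly6a among them, summed to 11353 to 13078 CPM in knockout libraries, against 5173 to 8961 CPM in controls. Osteoblast genes summed to 137 to 303 CPM in knockout libraries, against 103 CPM in control 1 and 5969 and 6507 CPM in the other controls, and cartilage genes to 566 to 925 CPM in knockout libraries, against 1052 CPM in control 1 and 7635 and 8769 CPM in the other controls. Neutrophil genes summed to 41.3, 20.9 and 51.1 CPM in knockout libraries 1, 2 and 3, against 44.5 to 78.1 CPM in controls, and endothelial genes to 139 to 264 CPM in knockout libraries, against 217 to 299.7 CPM in controls. No gene of these 6 marker lists was called by edgeR. At an unadjusted p under 0.05 stood 14 of 14 cartilage, 9 of 10 osteoblast and 4 of 12 fibroblast progenitor genes. So did 3 of 9 neutrophil, 1 of 12 macrophage and 1 of 10 endothelial genes, with no share of all genes given beside these counts. The authors' deposited table called 13, 7, 3, 2, 0 and 0 of them, in the same order. The part of these sums in the chemokine differences was not tested.

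**Figure D3:**
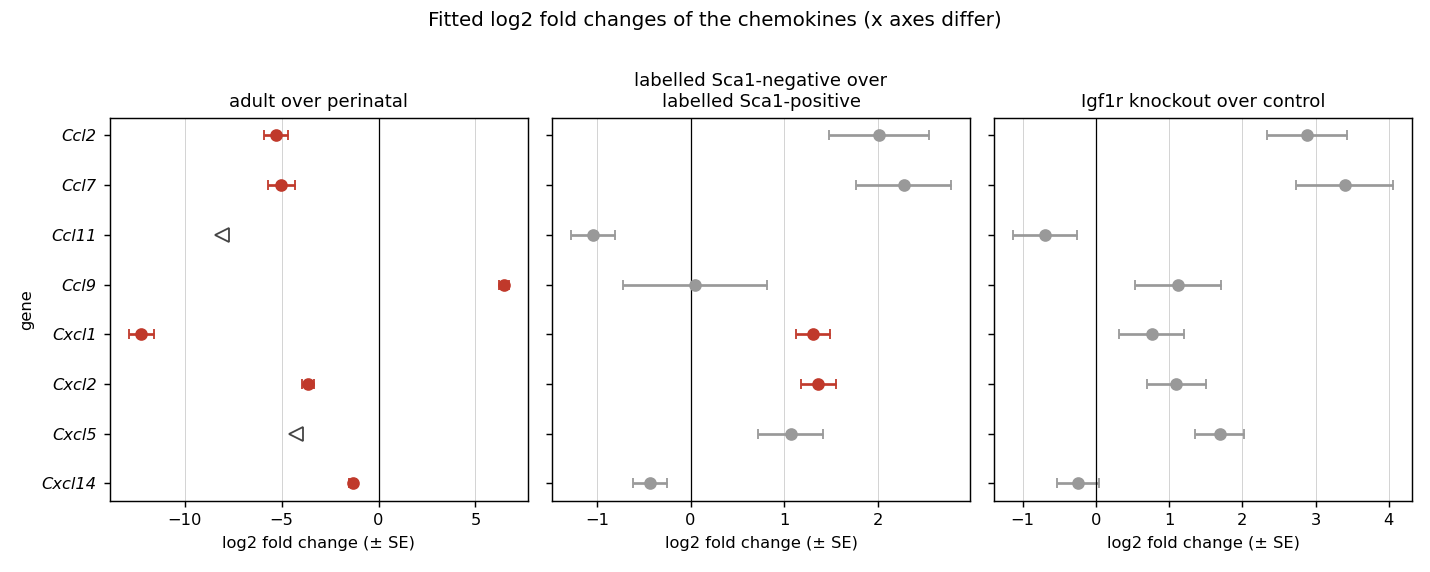
Log2 fold changes of the 8 chemokines (points) with their standard errors (bars) for adult over perinatal, labelled Sca1-negative over labelled Sca1-positive, and Igf1r knockout over control, on x axes that differ, red where the edgeR adjusted p is under 0.05. Open triangles are bounds for Ccl11 and Cxcl5, which had no adult count. Ccl9 at 6.47 is the only chemokine right of 0 for adult over perinatal.

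Length-scaled levels, the TPM values of the authors' deposited adult and Sca1 tables, gave the order of the chemokines within a group. In adult cells Ccl9 was first at 78.1 ± 15.3 TPM, above the range of the next, and Cxcl14 (54.6 ± 6.19 TPM), Ccl2 (47.6 ± 12.4 TPM) and Ccl7 (45.9 ± 7.92 TPM) overlapped with each other (SD, n = 3). Cxcl2 followed at 5.46 ± 0.633 TPM and Cxcl1 at 0.406 ± 0.474 TPM. In perinatal cells Cxcl1 (1243 ± 407 TPM), Ccl2 (1012 ± 680 TPM) and Ccl7 (765 ± 634 TPM) led with overlapping ranges, Cxcl14 (108 ± 26.0 TPM), Ccl11 (87.5 ± 51.2 TPM) and Cxcl2 (40.9 ± 10.6 TPM) came next, and Cxcl5 (4.85 ± 1.03 TPM) and Ccl9 (0.760 ± 0.922 TPM) were last (SD, n = 3). Ccl9 was thus the most abundant of the 8 in adult cells and the least abundant in perinatal cells. In the libraries labelled Sca1-negative the same 3 genes led, Cxcl1 at 2158 ± 157 TPM, Ccl2 at 2091 ± 1439 TPM and Ccl7 at 1600.5 ± 1013 TPM (SD, n = 2), again with overlapping ranges, and Ccl9 was last at 0.293 ± 0.244 TPM.

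Together the 8 genes held 0.0181%, 0.0172% and 0.0158% of all counts in adult libraries, against 0.299%, 0.123% and 0.116% in perinatal libraries. They held 0.429% and 0.231% in the libraries labelled Sca1-negative, against 0.123% and 0.116% in libraries labelled Sca1-positive. In knockout libraries they held 0.298%, 0.617% and 0.891%, against 0.228%, 0.123% and 0.116% in controls. Ccl2 and Ccl7 made up 52.4%, 71.1% and 83.2% of these chemokine counts in knockout libraries, against 31.9%, 40.2% and 34.0% in controls. The ratio of Ccl7 to Ccl2 counts was 0.669, 0.767 and 1.05 in knockout libraries, against 0.637, 0.624 and 0.646 in controls. Among the knockouts it was highest in the library with the most Ccl2. The ratio did not follow the level of Ccl2 across all groups. In adult libraries, which had the least Ccl2, it was 0.838, 1.04 and 0.916, against 0.828, 0.624 and 0.646 in perinatal libraries. It was 0.747 and 0.804 in libraries 2 and 3 labelled Sca1-negative, of which library 2 had more Ccl2.

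**Figure D4:**
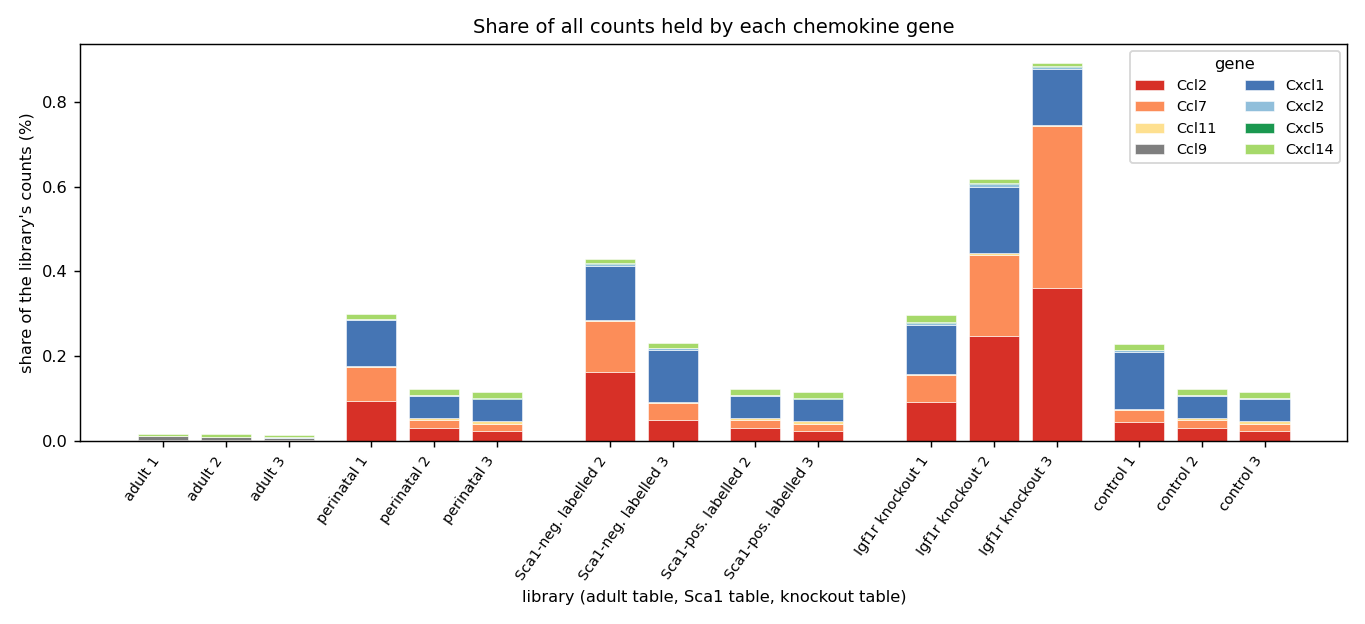
Share of all counts of a library (percent, stacked bars from 0) held by each of the 8 chemokines, in every library of the adult, Sca1 and knockout tables. Adult libraries hold at most 0.0181%, knockout library 3 holds 0.891%, and the knockout libraries differ from each other mainly in the segments of Ccl2 and Ccl7.

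Genes of nearest pattern were found over the 16 library columns of the 3 tables, which include repeated libraries, as the smallest root mean square distance of log2(CPM + 1) centred within each table, among 12338 genes. The nearest gene to Ccl2 was Ccl7, at 0.24, and the next was Pdpn, the podoplanin gene of fibroblasts, at 0.53. Cxcl1 lay nearest to Dpt and Tnfaip6, at 0.26 and 0.28, and Cxcl2 to Fstl1 and S100a10, at 0.18 each. Ccl11 lay nearest to Fibin and Ecm2, at 0.29 and 0.30. Cxcl5 lay nearest to Fzd6 and Klf9, at 0.26 and 0.27, and Cxcl14 to St3gal4 and Bace1, at 0.13 each. Cxcl2 was therefore not among the 2 nearest genes of its neighbour Cxcl1, whereas Ccl2 and Ccl7 were each other's nearest gene. The distance also counts the size of a difference, and Cxcl1 differed far more than Cxcl2 between adult and perinatal libraries. Outside the adult libraries, the ratio of Cxcl2 to Cxcl1 counts stayed at 0.0318 to 0.0510. In adult libraries 1 and 2 it was 5.67 and 22.0, on few Cxcl1 counts. Ccl9 fell below the mean of 1 CPM per table that this search asked for. The columns share libraries, depth and the difference between adult and perinatal libraries, so these distances are a description.

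Ccl2, Ccl7 and Ccl11 are paralogs, as are Cxcl1 and Cxcl2, and how the authors' counting placed reads that match more than 1 of them is, like the strand setting, not given in the sources used here.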

How the data were processed

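PolyA RNA of 11 samples, sorted from bone marrow by gates for stromal cells, was measured by RNA sequencing. The submitters' processing notes name Trimmomatic 0.32, DESeq2 and the build mm10. For the aligner, counter, annotation and strand, the setting is not given in the sources used here. In all, the authors deposited 3 tables, each with raw counts per gene. Per the file headers, the adult and Sca1 tables also hold the authors' TPM values. The deposited knockout table's columns headed TPM hold some negative values, their scale is not given in the sources used here, and they were not used. Each deposited table also holds the authors' log2 fold change and adjusted p-value, per the file headers, whose sign was read from the counts.

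Each table was fitted by itself on its counts with edgeR 4.0.16 in R 4.3.3, with limma 3.58.1 loaded (filterByExpr, TMM factors, glmQLFit with robust estimation, glmQLFTest, with no term but the group). The Benjamini-Hochberg adjustment ran over all 13757, 13529 and 13590 genes tested, and genes with an adjusted p under 0.05 count as called. The SE follows from the fold change and its quasi-likelihood F statistic. CPM and SD are of counts over the library total, without TMM. Total counts per library were 13412316 to 23782217. The fit was also run on simulated counts whose spread was fixed in advance. That run does not show how the fit behaves at the spread of these libraries.

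Genes were matched by name, and 12 lists were used. The 8 chemokines and the lists were chosen with earlier results of these data known. Other genes named are, per list and comparison, up to 4 called genes with the smallest adjusted p, or the 2 of highest mean CPM where none was called, with Ly6a, Igf1r, Pdgfra and Lyz2 as checks. A gene that this rule names is not reported here. Markers at 0, defining a cell type or shown beside a sum were named after their values were seen. Alternatives were RLE and upper quartile factors, no filter on low counts, DESeq2 1.42.0, each replicate left out, the replicate number as a block, and libraries that stood apart left out. Genes at 0 in a whole group were also left out for the adult comparison.

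Groups share replicate numbers in the titles. After the group means were removed, same-numbered knockout and control libraries correlated at 0.307, 0.145 and 0.119 across genes. The main fits had no term for the number in any table, and a block on it was run only as an alternative. Control 1, numbered 5 in its column name, has its number from the sample's title, and knockout 3 correlated more with control 2 (0.353) than with its own number. In the adult table the correlations were -0.05, -0.03 and 0.289. The Sca1 table had only 2 pairs, which gave a single value of 0.442. No label ties same-numbered samples to each other, so they share only a number.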

Additional observations from a re-analysis of the deposited data

How the results depend on the processing

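For adult against perinatal cells, all 8 chemokines kept their direction under each alternative run. They kept their call under each that left more than 1 sample in a group. Ccl11 and Cxcl5 cannot enter when genes at 0 in a group are left out, which leaves 6. Upper quartile factors moved the median log2 fold change of all genes in that comparison to -0.19, from -0.06. For the labelled Sca1 groups 597 genes and 2 chemokines were called; DESeq2 called 1007 and 4, the replicate block 1369 and 5, with Ccl2 (edgeR adjusted p = 0.00569), Ccl7 (0.00143) and Ccl11 (0.0101) gained (the correlation of same-numbered libraries was 0.442), and leaving out 1 replicate gave 484 to 4835 genes and 3 to 7 chemokines. For the knockout 5 genes and 0 chemokines were called; DESeq2 called 999 and 3, the replicate block 0 and 0, leaving out controls 2 and 3 together 0 and 0, and leaving out 1 replicate 0 to 3003 genes (306 without control 1, 3003 without knockout 1) and 0 to 3 chemokines. The block changed no other chemokine call in the knockout comparison or the adult comparison.

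Some values changed sign, and the cause was not tested. In the labelled Sca1 groups the log2 fold change of Ccl9 was -1.39 to 0.74 and that of Zfp36 -0.68 to 0.51 when 1 replicate was left out, of Zfp36l1 -0.49 to 0.36, and of Lyz2 -0.041 to 0.17. With the block Ccl9 was at -0.075 and Zfp36 at -0.083, and with upper quartile factors Zfp36 was at -0.0068. In the knockout Ccl11 was at 0.40 and Cxcl1 at -0.068 with controls 2 and 3 left out, and Nfkbia was at -0.24 to 0.25 when 1 replicate was left out.

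Ccl9 in perinatal and knockout libraries and Cxcl1 in adult libraries rest on few counts, and the depth limits what can be said of them. Leaving out a library of the Sca1 table, or libraries 2 and 3 of the perinatal or control group together, leaves 1 sample in a group, which is assumed to vary like the rest.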
